A study of Mus musculus with 6 samples.

Results

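The serotonin receptors measured here are 10 genes, Htr1a, Htr1b, Htr1d, Htr1f, Htr2a, Htr2c, Htr3a, Htr4, Htr6 and Htr7, out of 47062 genes in the deposited table, and each was found by the Ensembl identifier that carries its symbol. RNA was sequenced from newborn mouse striatum, dissected with the subventricular zone at postnatal day 0, on a mixed background of C57BL/6J, 129S6 and CD1. The mutants (genotype Drd2-Cre;Sp9Flox/Flox, 3 libraries) carried floxed alleles of Sp9, a zinc finger transcription factor gene, and also Drd2-Cre, in which the dopamine receptor gene Drd2 supplies the regulatory sequence for Cre recombinase. The controls (genotype Sp9Flox/Flox, 3 libraries) were littermates with the same floxed alleles and no Cre. Drd2 marks the striatal projection neurons of the indirect pathway, but the labels do not say which cells had Cre activity. No group carried the Cre without floxed alleles. How many animals went into a library is not stated in the labels, and p-values rest on the spread of the libraries alone.

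Serotonin reaches the striatum from axons of the raphe nuclei and acts there on many receptor types. All but the Htr3 genes encode receptors that signal through G proteins. The Htr1 receptors act through Gi/o proteins and lower cyclic AMP, the Htr2 receptors act through Gq proteins and phospholipase C, and Htr4, Htr6 and Htr7 act through Gs proteins and raise cyclic AMP. Htr3a encodes a subunit of a cation channel that serotonin opens. Several of these genes are known from the adult striatum, where Htr1b protein sits on the axon terminals of projection neurons and Htr6 is among the receptors most enriched in that tissue.

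The targeted gene Sp9 had an FPKM (fragments scaled to transcript length and to the mapped total of the library) of 8.65 ± 0.906 in the mutants and 18.8 ± 1.38 in the controls (SD, n = 3 each), with a limma adjusted p of 0.0567 on FPKM and of 0.00635 on the authors' scaled counts; which exons the floxed alleles lose is not given in the labels. Drd2 had 44.4 ± 1.97 and Drd1, which marks the direct pathway neurons, 39.3 ± 2.91 in the mutants, against 45 ± 3.25 and 23.7 ± 4.31 in the controls. The libraries held 16237067 to 19457784 fragments in genes. Xist, which is transcribed from an inactive X chromosome, had an FPKM of 0.0604 in control replicate 3 and of 186 to 235 in the other libraries, which sets that library apart from the others by an X-linked transcript. Of 9 markers of indirect pathway neurons, 9 were tested on FPKM and 2, Adora2a and Grik3, fell (limma), where 0.0600% of all tested genes passed. The summed FPKM of the 9 was 139, 136 and 109 in the mutants, against 272, 239 and 258 in the controls. On FPKM, Penk, Gpr6, Ptprm, P2ry1 and Nt5e were lower at an unadjusted p under 0.05 only, which 5.65% of all tested genes reached in either direction. On scaled counts Gpr6, Ptprm and P2ry1 also passed (limma adjusted p of 0.00635, 0.00789 and 0.0166). Penk and Nt5e did not (0.249 and 0.33). Of 7 markers of direct pathway neurons, 0 passed, Drd1, Sfxn1 and Pdyn were higher and Isl1 lower at that unadjusted p, and the sum was 499, 452 and 486 in the mutants, against 439, 462 and 471 in the controls. Cortical glutamatergic markers, a list of 10 genes, summed to an FPKM of 15.4 to 70.3 in the mutants and of 12.7 to 29.2 in the controls. Their part in the receptor values was not tested.

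Promoter sequences are shown for Htr1d, which has several annotated transcripts and gave different values by each of the authors' measures, and for Htr6, the gene whose groups did not overlap. RefSeq (GRCm38.p6) gave 10 promoter windows for 8 of the receptor genes, each 300 bases long and running from 250 bases before the start to 50 after it. Capitals mark the letters GGGCGG, a GC box of the kind that Sp family proteins are known to bind, or GGGTGG, a GT box, on either strand; boxes that overlap or adjoin run together. Htr1d has 2 annotated starts 1088 bases apart, and the windows lie at chr4:136423274-136423573 and chr4:136424362-136424661 on the plus strand. The window of the upstream start of Htr6 lies at chr4:139075521-139075820 on the minus strand.
Htr1d, start 1: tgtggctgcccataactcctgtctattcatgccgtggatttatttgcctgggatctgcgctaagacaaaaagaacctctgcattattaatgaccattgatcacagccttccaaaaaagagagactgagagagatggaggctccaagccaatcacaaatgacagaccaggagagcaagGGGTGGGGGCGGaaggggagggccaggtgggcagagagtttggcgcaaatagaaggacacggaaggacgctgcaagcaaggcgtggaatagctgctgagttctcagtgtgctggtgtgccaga
Htr1d, start 2: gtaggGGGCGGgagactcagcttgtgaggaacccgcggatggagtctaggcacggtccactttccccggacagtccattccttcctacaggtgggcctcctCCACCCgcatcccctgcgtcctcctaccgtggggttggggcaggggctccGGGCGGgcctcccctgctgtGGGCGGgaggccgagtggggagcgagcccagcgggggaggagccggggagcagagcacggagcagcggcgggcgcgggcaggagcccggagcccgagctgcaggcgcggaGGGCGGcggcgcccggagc
Htr6, start 1: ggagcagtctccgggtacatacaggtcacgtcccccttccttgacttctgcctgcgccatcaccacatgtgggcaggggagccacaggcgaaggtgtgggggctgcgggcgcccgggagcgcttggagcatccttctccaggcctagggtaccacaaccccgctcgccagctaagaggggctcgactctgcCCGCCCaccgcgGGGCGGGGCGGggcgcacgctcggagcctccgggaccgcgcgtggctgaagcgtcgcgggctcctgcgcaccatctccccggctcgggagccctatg
The first Htr1d window holds 1 GC box and 1 GT box, the second holds 4 GC boxes and 1 GT box, and the Htr6 window shown holds 3 GC boxes. A second Htr6 window, whose start lies 781 bases downstream (chr4:139074740-139075039, minus strand), holds neither box. Of the 10 receptor windows, 6 held a GC box and 3 a GT box; the windows of Htr1b and Htr2c also held neither. Over all 32851 windows of that length, 35.7% held a GC box and 31.5% a GT box. A match is a run of letters and not a measured binding site.

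The receptor genes spanned a wide range of levels, and a pair of them stood above the rest. Htr1b, with a mean FPKM of 7.69 over the 6 libraries, and Htr2c, with 7.45, together made up 69.6 ± 3.35% of the summed FPKM of the 10 genes in the mutants and 65.6 ± 3.98% in the controls (SD, n = 3 each). Their order was not fixed, since Htr1b was the higher of the pair in 3 of 6 libraries. Htr1b lay above 61.9% and Htr2c above 61.5% of the protein-coding genes in the table. Next came Htr1d with a mean FPKM of 2.34, Htr6 with 1.97 and Htr3a with 1.14. Htr2a (0.613), Htr7 (0.496) and Htr1a (0.392) followed, and Htr1f (0.102) and Htr4 (0.081) were lowest. Between neighbours in this order, the ranges over the 6 libraries were separate only from Htr2c to Htr1d and from Htr1a to Htr1f. Htr6 was nevertheless above Htr3a, and Htr3a above Htr2a, in all 6 libraries.

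**Figure D1:**
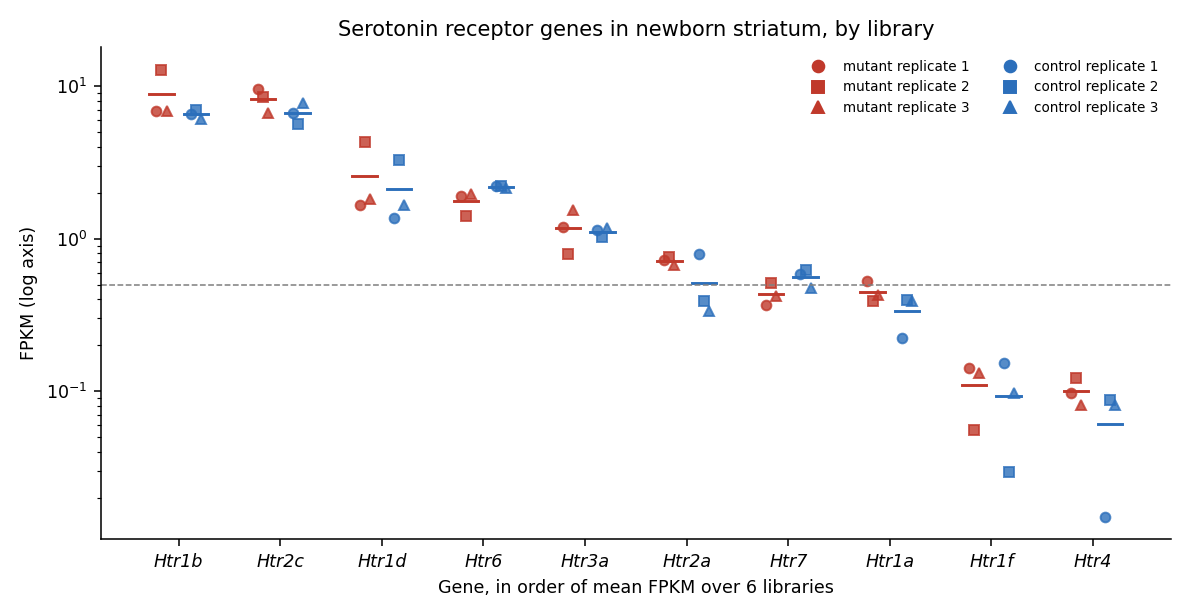
FPKM of the 10 serotonin receptor genes in each library on a log axis, with mutants in red on the left and controls in blue on the right of each gene; points are libraries, short bars are group means, and the dashed line marks an FPKM of 0.5, the mean a gene had to reach to be tested. Htr1b and Htr2c lie highest, and Htr6 is the gene whose 3 mutant points all lie below its 3 control points.

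No receptor gene passed the test between mutants and controls. The question is whether bulk striatum holds more or less of each receptor transcript when Sp9 is targeted in Drd2-Cre cells. In bulk tissue, fewer cells of a type and less RNA per cell cannot be told apart. A gene was tested where its mean FPKM reached 0.5, which took 6 of the 10 receptor genes: Htr1b, Htr1d, Htr2a, Htr2c, Htr3a and Htr6. With limma on log2(FPKM + 0.5) and Benjamini-Hochberg adjustment over all 16666 tested genes, 0 of the 6 rose and 0 fell, against 0.0600% of all tested genes past an adjusted p of 0.05. Their adjusted p ran from 0.885 to 0.992. At an unadjusted p under 0.05 the count was also 0 of 6, where all tested genes gave 5.65%. The 4 untested receptor genes had FPKM groups that overlapped. Of the 6 tested genes, 1 had FPKM groups that did not overlap with the mutants lower and 0 with the mutants higher. The shares over all tested genes were 6.05% and 5.33%. The estimates were above 0 for 5 genes and below 0 for 1, with a median log2 fold change of 0.25, against -0.00016 over all tested genes. On the authors' scaled counts 8 receptor genes could be tested with limma, and 0 passed either threshold, against 0.143% of all genes adjusted and 6.42% unadjusted.

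The Gi/o-coupled receptors were led by Htr1b, whose group difference came from a single library. Htr1b (chromosome 9, 81628291 to 81633828, minus strand; GENCODE M21 on GRCm38) had an FPKM of 6.88, 12.8 and 6.87 in mutant replicates 1 to 3, against 6.56, 6.99 and 6.09 in control replicates 1 to 3. Mutant replicate 2 stood apart, and the other mutants lay within the range of the controls. The log2 fold change was 0.35 ± 0.25 (SE), with a 95% interval of -0.26 to 0.96 and an adjusted p of 0.888 (limma), and without mutant replicate 2 it was 0.07. The estimated fragments behind these values were 502, 939 and 427 in the mutants and 443, 484 and 383 in the controls, so the high value did not rest on few fragments.

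D430036J16Rik, an antisense gene that overlaps Htr1b, did not follow it. It had an FPKM of 6.95, 6.34 and 2.96 in the mutants, against 3.94, 8.54 and 3.73 in the controls, and was highest in control replicate 2. Whether fragments were assigned by strand is not given in the sources used here. The 5 markers of septum, a neighbouring tissue, had their highest summed FPKM in mutant replicate 2. They summed to 19.3 there, and to 14.4 and 14.2 in the other mutants and 12, 14.0 and 14.1 in the controls. The 8 markers of medial eminence and cholinergic interneurons had a summed FPKM of 495, 497 and 410 in the mutants, against 318, 433 and 383 in the controls. Sst (179 in mutant replicate 2) and Npy (257) made up most of that sum. Lhx6, Lhx8, Nkx2-1, Npy, Chat and Slc5a7 were each highest in mutant replicate 2, and Sst and Nxph1 in mutant replicate 1. Nkx2-1 had 9.06, 13.9 and 8.44 in the mutants, against 7.23, 9.82 and 9.41 in the controls. All 8 were tested and 0 passed, and Lhx8 and Nxph1 were higher at an unadjusted p under 0.05 (limma adjusted p of 0.858 and 0.764). Of all tested genes, 5.65% reached that unadjusted p in either direction. The part of septal tissue or of these interneurons in the Htr1b value was not tested.

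Htr1d, a close relative of Htr1b, gave a different picture in the authors' FPKM and in their scaled counts (chromosome 4, 136423524 to 136444398, plus strand). Its FPKM was 1.67, 4.28 and 1.82 in mutant replicates 1 to 3, against 1.37, 3.29 and 1.65 in control replicates 1 to 3. Replicate 2 was highest in both groups, and the groups overlapped. The scaled counts were 79.1, 119 and 58.8 in the mutants, against 45.3, 69.2 and 57.1 in the controls. On that scale mutant replicate 1 passed control replicate 2, which it lay well below in FPKM. The log2 fold change was 0.22 on FPKM (95% interval -0.80 to 1.24, adjusted p = 0.963, limma) and 0.54 on scaled counts (-0.08 to 1.16, adjusted p = 0.833, limma). With 1 library left out the FPKM estimate ran from -0.14, without mutant replicate 2, to 0.53, without control replicate 2, and it was 0.01 without control replicate 1.

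The number of scaled counts that made up 1 FPKM of Htr1d ran from 21 in control replicate 2 to 47.4 in mutant replicate 1, a 2.25-fold range. For Htr1a, Htr1b, Htr1f, Htr2a, Htr2c, Htr3a and Htr4 this range was 1.02-fold at most, for Htr6 1.16-fold and for Htr7 1.24-fold. FPKM divides by a transcript length that is weighted over the isoforms, and GENCODE lists 4 Htr1d transcripts with spliced lengths of 363 to 2904 bases. The shortest of these, a transcript not annotated as coding, begins at the second of the starts shown above. The part of isoform use in the Htr1d values was not tested.

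**Figure D2:**
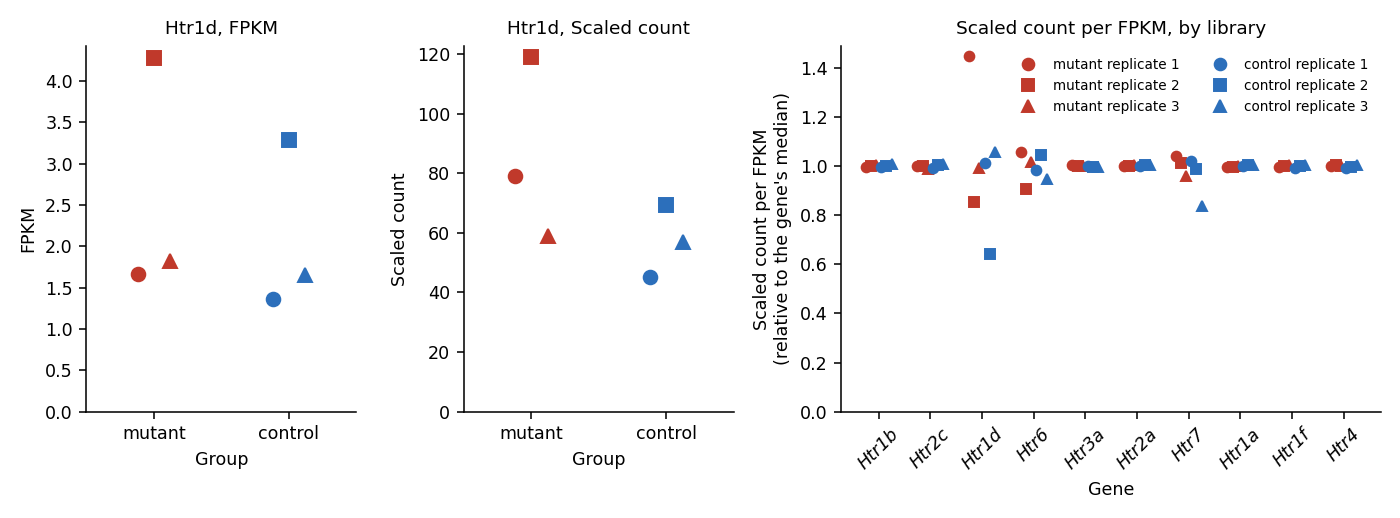
Left and middle, FPKM and authors' scaled count of Htr1d in each library, mutants in red and controls in blue; right, scaled count per FPKM for each receptor gene and library, divided by the median of the gene. The ratio varied 2.25-fold between libraries for Htr1d, whereas for 7 of the 10 genes it varied by 1.02-fold at most.

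Htr1a, the inhibitory receptor that also serves as an autoreceptor on raphe neurons, stayed below the filter. Its FPKM was 0.529, 0.388 and 0.425 in the mutants, against 0.225, 0.395 and 0.388 in the controls, and control replicate 1 was the low library. Htr1f was near the limit of detection, with 5, 2 and 4 estimated fragments in the mutants and 5, 1 and 3 in the controls. Both genes had groups that overlapped, and with no filter their adjusted p were 0.866 and 0.952 (limma).

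The Gq-coupled receptors both had estimates above 0 with intervals that included 0. Htr2c, an X-linked gene (chromosome X, 146962513 to 147197277, plus strand) whose transcript is known to be edited by adenosine deaminases, had an FPKM of 9.52, 8.48 and 6.69 in mutant replicates 1 to 3. Control replicates 1 to 3 had 6.62, 5.61 and 7.80. The groups overlapped through mutant replicate 3 and control replicate 3, and control replicate 3 was also the library with almost no Xist. The log2 fold change was 0.28 ± 0.17 (SE; 95% interval -0.13 to 0.70), a 1.21-fold difference with an adjusted p of 0.888 (limma). With 1 library left out it ran from 0.17, without control replicate 2, to 0.41, without mutant replicate 3; it was 0.18 without mutant replicate 1 and 0.39 without control replicate 3.

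Htr2c is also known as a gene of the choroid plexus, the tissue that secretes cerebrospinal fluid, and markers of that tissue were low in every library. The 9 choroid plexus markers summed to an FPKM of 3.0, 2.99 and 3.08 in the mutants, against 1.91, 2.90 and 1.89 in the controls. Of the 9, 7 had a mean FPKM under 0.5 (Folr1, Kl, Kcnj13, Otx2, Aqp1, Sostdc1 and Kcne2), and Folr1 was at 0 in every library. Ttr, which encodes the transport protein transthyretin that choroid plexus makes in large amounts, had an FPKM of 1.48, 1.04 and 1.54 in the mutants, against 0.118, 0.867 and 0.192 in the controls. The Ttr groups did not overlap, as in 5.33% of all tested genes with the mutants higher, and its unadjusted p was 0.0173 (limma). Clic6, a chloride channel gene, had 0.457, 0.791 and 0.429 in the mutants, against 0.538, 0.982 and 1.02 in the controls. The Clic6 mean was lower in the mutants, and its groups overlapped. Neither passed the threshold (limma adjusted p of 0.795 for Ttr and 0.888 for Clic6), and their part in the Htr2c values was not tested. The table also lists 8 small RNA genes inside Htr2c, 7 miRNA genes and the snoRNA gene Snora35, and all were at 0 in every library. These values do not show that such small RNAs were absent from the tissue.

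Htr2a, the receptor through which psychedelic drugs act and a gene best known from cortex, lay lower, and 1 control stood apart from the others. Its FPKM was 0.720, 0.757 and 0.677 in the mutants, against 0.799, 0.390 and 0.336 in the controls. The mutants lay close together and the controls did not, with control replicate 1 above every mutant. The log2 fold change was 0.30 (95% interval -0.23 to 0.83, adjusted p = 0.888, limma), and with 1 library left out it ran from 0.18, without control replicate 3, to 0.50, without control replicate 1. Between 14 and 37 fragments per library stood behind these values.

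Htr3a, the channel subunit, is known as a marker of interneurons from the caudal ganglionic eminence. Its FPKM was 1.19, 0.791 and 1.55 in the mutants, against 1.14, 1.03 and 1.17 in the controls. The mutants enclosed the whole range of the controls, and the log2 fold change was 0.03 (95% interval -0.46 to 0.53, adjusted p = 0.992, limma). The summed FPKM of the cortical markers was 42.3, 15.4 and 70.3 in mutant replicates 1 to 3, against 26.9, 29.2 and 12.7 in control replicates 1 to 3. Htr3a had the same order of libraries as this sum among the mutants and the reverse order among the controls. Of 9 caudal eminence markers, 8 were tested and 0 passed over all genes with limma. The 9 markers summed to 163, 138 and 144 in the mutants, against 146, 125 and 151 in the controls, and Reln made up most of the sum. The median log2 fold change of the tested markers was 0.27. Ndnf (-0.23) and Nr2f2 (-0.07) had estimates below 0, and the other tested markers above 0. Adarb2, which encodes a relative of the editing enzymes that has no known editing activity, had an FPKM of 15.6 ± 0.563 in the mutants and 10.6 ± 1.12 in the controls (SD, n = 3 each; log2 fold change 0.53, adjusted p = 0.364 with limma). On scaled counts Adarb2 was past the threshold, with an adjusted p of 0.0166 (limma). Npas1, a transcription factor gene of interneurons, had 1.87 ± 0.126 and 1.33 ± 0.142 in the same order of groups, with an adjusted p of 0.815 (limma).

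Among the Gs-coupled receptors, Htr6 was the receptor gene whose groups did not overlap. Htr6 (chromosome 4, 139061108 to 139075570, minus strand) had an FPKM of 1.90, 1.41 and 1.96 in mutant replicates 1 to 3, against 2.20, 2.20 and 2.16 in control replicates 1 to 3. Every mutant lay below every control, on FPKM and on scaled counts, and mutant replicate 2 was lowest. Beside the 6.05% of all tested genes with that pattern, 1 such gene among these 10, of which 6 were tested, is near the background. Htr6 averaged 1.76 ± 0.298 in the mutants and 2.19 ± 0.0209 in the controls (SD, n = 3 each). This is a log2 fold change of -0.26 ± 0.13 (SE; 95% interval -0.59 to 0.07). The adjusted p was 0.885 (limma), and an exact permutation test (two-sided) returned p = 0.1, which no split of 3 against 3 libraries can go under. Without mutant replicate 2 the log2 fold change was -0.15, and without any of the other libraries it was -0.26 to -0.33.

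Htr7 had an FPKM of 0.365, 0.510 and 0.418 in the mutants, against 0.591, 0.620 and 0.475 in the controls, and its mean lay just under the filter. The groups overlapped through mutant replicate 2 and control replicate 3. With no filter its log2 fold change was -0.19 (95% interval -0.49 to 0.11, adjusted p = 0.866, limma), and without control replicate 3 it was -0.25. Htr4 (chromosome 18) rested on 7, 9 and 5 fragments in the mutants and 1, 6 and 5 in the controls, too few to order the groups. The summed FPKM of these 3 genes was 2.36, 2.05 and 2.46 in the mutants, against 2.80, 2.91 and 2.72 in the controls, a sum made up mostly of Htr6. Summed over all 10 receptor genes it was 23.0, 29.5 and 20.6 in the mutants, against 19.7, 20.6 and 20.3 in the controls, and Htr1b made up 12.8 of the 29.5 in mutant replicate 2.

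**Figure D3:**
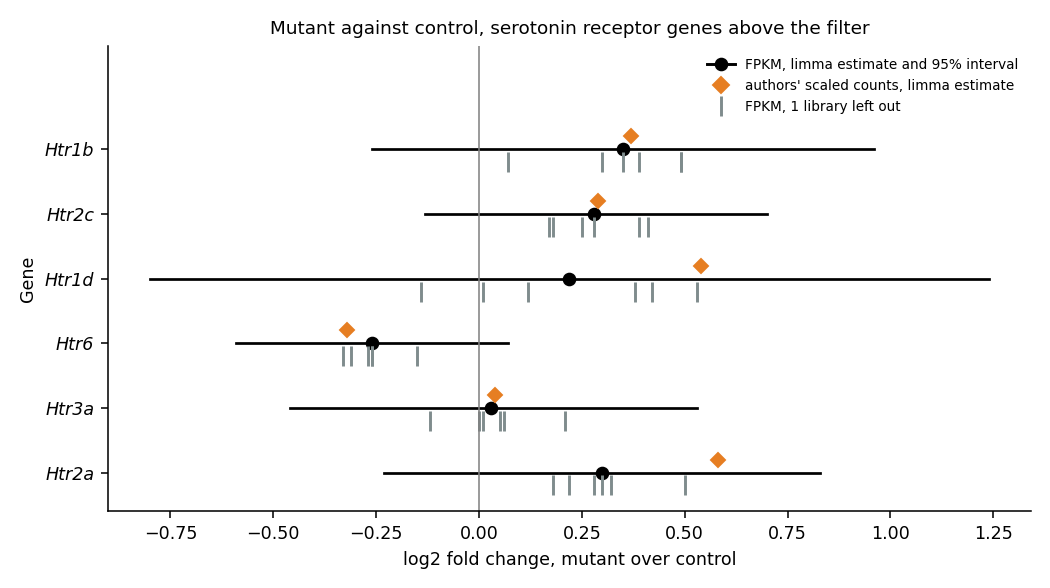
Log2 fold change of mutant over control for the 6 tested receptor genes: black points and lines are the limma estimate on log2(FPKM + 0.5) and its 95% interval, orange diamonds the estimate on the authors' scaled counts, and grey ticks the FPKM estimates with 1 library left out. Every interval includes 0, that of Htr1d is the widest shown (-0.80 to 1.24), and the ticks of Htr1d and Htr3a lie on both sides of 0.

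The intervals give the range of differences that these libraries leave possible. On the log2(FPKM + 0.5) scale, the interval of the mutant level relative to the control level ran from 0.911 to 1.62 for Htr2c, from 0.835 to 1.94 for Htr1b and from 0.665 to 1.05 for Htr6. It ran from 0.728 to 1.44 for Htr3a and from 0.852 to 1.78 for Htr2a, and for Htr1d from 0.574 to 2.36, so a doubling of Htr1d was not excluded. This scale understates the fold changes of low genes such as Htr2a. On scaled counts the 95% interval of the Htr2a log2 fold change was -0.15 to 1.31 (limma), which does not exclude a doubling. An adjusted p above the threshold thus does not show that a receptor was at the same level in both groups.

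The 4 other serotonin receptor genes of the mouse added 1 expressed gene. Htr5a, a Gi/o-coupled receptor, had an FPKM of 1.35, 1.67 and 1.29 in the mutants, against 1.48, 1.59 and 1.69 in the controls, which is a level between those of Htr6 and Htr3a. Its log2 fold change was -0.11 (adjusted p = 0.925, limma) and the groups overlapped. Htr2b, Htr3b and Htr5b had an FPKM of 0.132 at most in any library.

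Genes that make, store and clear serotonin did not pass the test, and defining markers of serotonin neurons were low or at 0. Of 10 genes for synthesis, storage and clearance, 7 were tested and 0 passed, with a median log2 fold change of -0.01. Tph2, the rate-limiting enzyme of serotonin synthesis in neurons, had a mean FPKM of 0.493 in the mutants and 0.568 in the controls. Slc6a4, the serotonin transporter, reached 0.0678 at most, and Fev, a transcription factor gene of raphe neurons, was at 0 in every library. Slc29a4, a low-affinity monoamine transporter, was the highest of the list with 45.2 ± 1.25 in the mutants and 45.2 ± 1.90 in the controls. Maoa, the monoamine oxidase that prefers serotonin, had 9.77 ± 0.253 in the mutants and 9.87 ± 0.424 in the controls (SD, n = 3 each). Slc18a2, which loads monoamines into vesicles, had 3.56 ± 0.105 and 3.76 ± 0.811 in the same order of groups. Maob, the other monoamine oxidase, had 0.917, 1.22 and 0.843 in the mutants, against 0.806, 0.681 and 0.753 in the controls, with groups that did not overlap, as in the 5.33% given above, and an adjusted p of 0.888 (limma).

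The G protein and effector genes that these receptors use held 6 members with an unadjusted p under 0.05 and none past the adjusted threshold. Over all 6 lists of the serotonin system, with 49 genes, 40 were tested with limma. At an unadjusted p under 0.05, 2 were higher and 4 lower, which is 15.0% against 5.65% of all tested genes. The lists were drawn up with earlier results of these data known. In the Gq list Plcb4, a phospholipase C gene, had an FPKM of 6.13, 5.45 and 6.15 in the mutants, against 4.22, 4.48 and 4.55 in the controls (log2 fold change 0.38, adjusted p = 0.577, limma). In the Gi/o list Kcnj3, a subunit of the potassium channels that Gi/o proteins open, had 1.09, 1.05 and 1.29 in the mutants, against 0.943, 0.579 and 0.490 in the controls (adjusted p = 0.858, limma). Gnao1, the Gi/o protein subunit that is most abundant in brain, had 320 ± 8.59 in the mutants and 354 ± 9.32 in the controls (adjusted p = 0.781, limma).

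In the Gs list, 3 of 7 tested genes had lower estimates at an unadjusted p under 0.05. Gnal, the stimulatory subunit typical of striatal neurons, had an FPKM of 175, 180 and 161 in the mutants, against 187, 195 and 194 in the controls (log2 fold change -0.16, adjusted p = 0.833, limma). Adcy1, an adenylyl cyclase gene, had 89.5 ± 8.36 in the mutants and 106 ± 4.25 in the controls (SD, n = 3 each; -0.25, adjusted p = 0.795, limma). Gnas, the widely expressed stimulatory subunit, had a log2 fold change of -0.12 on FPKM and of 0.08 on scaled counts, so its direction depended on the measure. Adcy5, the main cyclase of adult striatum, had 25.4 ± 3.34 and 24.6 ± 1.82 in the mutants and controls, and the median of the list was -0.04. Of the 11 receptor partners and editing enzymes, 0 had an unadjusted p under 0.05; S100a10, which encodes a protein that binds the Htr1b receptor, had 4.91, 5.73 and 13.0 in the mutants, against 10.2, 7.16 and 3.91 in the controls, and was not high in mutant replicate 2. Adar, an enzyme that edits Htr2c transcripts, had 40.0 ± 0.603 in the mutants and 39.8 ± 2.41 in the controls.

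**Figure D4:**
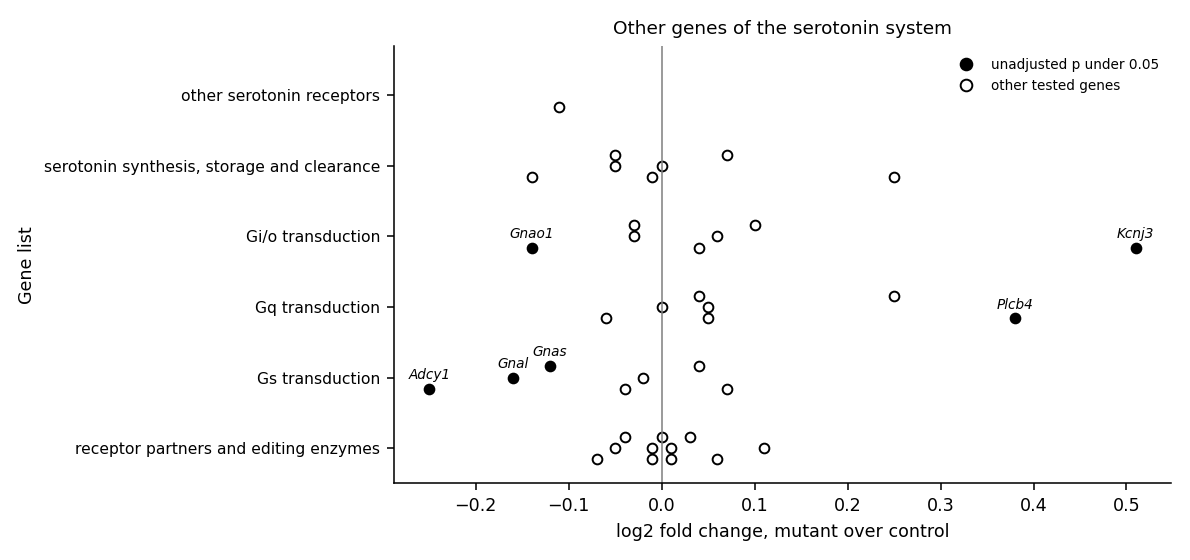
Log2 fold change of mutant over control (limma, log2(FPKM + 0.5)) for the tested genes of 6 lists of the serotonin system, 1 circle per gene, with slight vertical offsets for legibility. Filled circles, labelled, have an unadjusted p under 0.05: Kcnj3 and Plcb4 lie above 0 and Gnao1, Gnas, Gnal and Adcy1 below it; Gnas lay above 0 on scaled counts, and none passed the adjusted threshold.

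The genes that most resembled each receptor across the 6 libraries were taken from 9054 named genes whose mean FPKM reached 5, by Pearson correlation of log2(FPKM + 0.5). For Htr1b they were Gpsm2 (0.985), Lrrc4 (0.983) and Rragb (0.981), and for Htr2c they were Mmab (0.982), Ubr3 (0.982) and Camk1g (0.981). Htr6 was closest to Cul7 (0.996) and Cntn4 (0.980), and Htr3a to Tead1 (0.988), Nr2f1 (0.984) and Gemin8 (0.979). Htr1d was closest to Tmem68, Smarcd1 and Timp3 (0.990 to 0.982) and Htr2a to Galnt2, Klhl7 and Hif1an (0.991 to 0.983). With 6 libraries, between 51 and 96 of the compared genes exceeded 0.9 for each receptor gene, so these values describe the libraries only.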

How the data were processed

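RNA from 3 mutant and 3 control libraries was measured in 1 deposited table. Per the file headers it holds FPKM and count columns for each library, made by the authors; TopHat (version not given) and Cufflinks 2.1.1 with genome build GRCm38.p4 come from the submitters' processing notes. For the annotation release, strand and multiply mapped reads nothing is given in the sources used here. The deposited count columns are a signal, fragments multiplied by 1 factor per library: with the most common low value of a library as the unit, 97.7 to 97.9% of values above 0.01 were whole numbers of units to within 0.1. Fragments were estimated by dividing by that unit.

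Symbols matched 46483 of 47062 identifiers (GENCODE M21). The test was limma (version 3.58.1, R 4.3.3) on log2(FPKM + 0.5), with a trended variance and no covariate, over the 16666 genes whose mean FPKM reached 0.5; p-values are two-sided with a threshold of 0.05. Fold changes on this scale understate those of low genes. Named genes were all 10 receptors, Sp9 and Drd2; from each list, genes past 0.05, adjusted or unadjusted, then up to 3 others, some of which are given here by counts and sums alone; all choroid plexus markers; and 3 most similar genes per tested receptor, of which 1 is not reported here. D430036J16Rik, Snhg14, Xist, Maoa, Slc18a2, Slc29a4, Slc6a4, Fev, S100a10, Adar, Htr2b, Htr3b and Htr5b fall outside this rule and were chosen after their values were seen. The same holds for Lhx6, Nkx2-1, Chat, Nr2f2, Reln and Snora35. Members and lists were chosen with earlier results of these data known. The fit was tested on simulated data. The alternatives tried were a pseudocount of 0.1 or 1, a filter at a mean FPKM of 1 or none, quantile or median-ratio scaling, a replicate block, robust limma, the scaled counts as log2(value + 1) where their mean reached 10, and leaving out each library. A count test was not run, since the columns are not whole counts.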

Additional observations from a re-analysis of the deposited data

How the results depend on the processing

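The result that no receptor gene passed the adjusted threshold held in all 15 alternative limma fits, in which the adjusted p of the receptor genes was 0.735 at the lowest; a design of 3 against 3 libraries limits what this shows. The count at an unadjusted p under 0.05 was 0 in the 9 fits on all 6 libraries and ran from 0 to 1 with 1 library left out: it was 1 (Htr2a, unadjusted p = 0.0306) without control replicate 1 and 1 (Htr2c, unadjusted p = 0.0459) without mutant replicate 3, with limma adjusted p of 0.787 and 0.828. Of 89 fold changes of the 6 tested genes, 86 kept their direction and 3 did not: with 1 library left out Htr1d ran from -0.14 to 0.53 and Htr3a from -0.12 to 0.21, and the cause was not tested. Htr1a was 0.18 as reported and 0.42 on scaled counts, where Htr2a was 0.58 and Htr7 -0.29. With the replicate block, 0 receptor genes passed, adjusted or unadjusted. Same-numbered libraries did not deviate together, with correlations of 0.002, 0.037 and 0.043 for replicates 1, 2 and 3, and not every library correlated best with its own number. Over all genes, 10 passed in the reported fit, 5 with the replicate block, 23 on scaled counts, 15 with no filter, and from 12 to 23 where a library was dropped. The planned count test was not run. Depth limited Htr4 and Htr1f, which had 9 fragments at most in a library.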

Other observations

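Snhg14 on chromosome 7, whose transcript hosts small nucleolar RNAs that pair with Htr2c pre-mRNA, was looked at after its values were seen. It had an FPKM of 402, 344 and 359 in the mutants, against 272, 193 and 238 in the controls. The log2 fold change was 0.66 (adjusted p = 0.566, limma). The groups did not overlap, as in 5.33% of all tested genes with the mutants higher. On scaled counts Snhg14 had 6480, 5800 and 5970 in the mutants, against 5770, 4590 and 5700 in the controls. There the log2 fold change was 0.19 with an adjusted p of 0.803 (limma).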
